A study of Homo sapiens with 4 samples.

Results

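Polyribosome-bound RNA was compared between a library labelled as NSUN6 knockdown and its control over 6861 of the 17064 gene rows of the deposited table (40.2%). The rows taken were those whose mean over these 2 libraries was at least 5 FPKM. FPKM divides the sequenced fragments of a gene by transcript length and by the mapped fragments of the library, so each value is a level relative to the rest of its library. The rule used the mean level and not the difference, and a row could enter through 1 library alone. Under 5 FPKM lay 398 of these genes in control and 1091 in the knockdown-labelled library, and 5372 were at or above it in both. The rows just inside the rule were TSPYL2, at 8.06 FPKM in control and 1.94 in the knockdown-labelled library, and NLRC5, at 4.28 and 5.72. Just outside were PHF11, at 7.60 and 2.39 FPKM, and MRPL19, at 8.94 and 1.05.

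The cells were KYSE-150, an established cell line from a squamous carcinoma of the esophagus. Control cells had normal NSUN6, and the compared cells carried a short hairpin RNA for its stable knockdown. Input RNA and polyribosome RNA were sequenced from both, 1 library each, so no difference has a replicate check, no test was made, and genes are described by their levels and by a fold of 2. How many hairpins were used, and whether the stable cells were a pool or 1 clone, is not given in the sources used here. A further line of names closes the table and does not match its header. That line calls the control columns K150 with a GFP hairpin and the other pair K30 with a Mettl1 hairpin, and it places input where the header places the polyribosome fraction of that pair. The sample labels match the header, which was followed. Values with the fractions exchanged are those in the other order of that pair of columns, with the column headed as knockdown input set against control polyribosome RNA. They are given for a part of the groups and genes below. Of the 14 list medians that were past 2-fold in the header's order, 5 were past it in the same direction in the other order, and so were 113 of 185 named genes. A difference of NSUN6, of hairpin, of cell line and of column order cannot be told apart in these libraries.

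A message that is being translated carries several ribosomes at once, and such polyribosomes pellet through a dense sucrose layer while free RNA does not. Cycloheximide, added to all cells here, blocks elongation and holds the ribosomes in place. The level of a message in the pellet depends on how much of it the cell holds and on the share of it that carries ribosomes. NSUN6 transfers a methyl group to cytosine in RNA, and it is known for modifying the tRNAs of cysteine and threonine and sites in mRNAs.

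NSUN6 on polyribosomes was at 10.1 FPKM in control and 0.38 in the knockdown-labelled library, and at 8.85 and 3.83 in input. METTL1, the tRNA guanosine methyltransferase named by the closing line, was at 14.3 and 8.32 FPKM in polyribosome RNA and at 13.02 and 5.98 in input. Both messages were thus lower in both knockdown-labelled libraries. Knockdown-labelled minus control, the log2(FPKM + 1) of NSUN6 differed by -3.01 on polyribosomes and by -1.20 with the fractions exchanged. For METTL1 these values were -0.72 and -1.13. The NSUN6 transcript had a GC content of 40.7%. Of the 1363 genes with 32.0% to 45.0% GC, 72.3% were at least 2-fold lower on polyribosomes. Whether the low polyribosome value of NSUN6 reflects a knockdown was not tested. Values above 0 were listed for 14645 to 15081 genes per library, the FPKM of a library summed to 538002 to 627887, and the depth in reads is unknown. Across the 6861 genes, log2(FPKM + 1) had a Pearson's r of 0.66 between the polyribosome libraries and 0.73 between the inputs. Within control the fractions had an r of 0.98, and within the knockdown-labelled pair one of 0.83. These describe genes, which are not independent replicates.

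Many ribosome-bound messages differed, and more were lower than higher. By the difference of log2(FPKM + 1), knockdown-labelled minus control, 3247 of the 6861 genes (47.3%) lay 2-fold or more apart, of which 1219 were higher (17.8%) and 2028 lower (29.6%). The other 3614 stayed within 2-fold. The median difference was -0.17 and the quartiles were -1.23 and 0.70. At least 8-fold apart were 166 higher and 245 lower genes. Among the 5372 genes at 5 FPKM or more in both libraries the 2 directions were closer, with 893 higher and 1049 lower and a median of 0.01. With both libraries scaled to the same summed FPKM the median of the 6861 genes was -0.32, with 1036 higher and 2278 lower. In these bulk libraries fewer cells with a message and less of it per cell cannot be told apart.

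**Figure D1:**
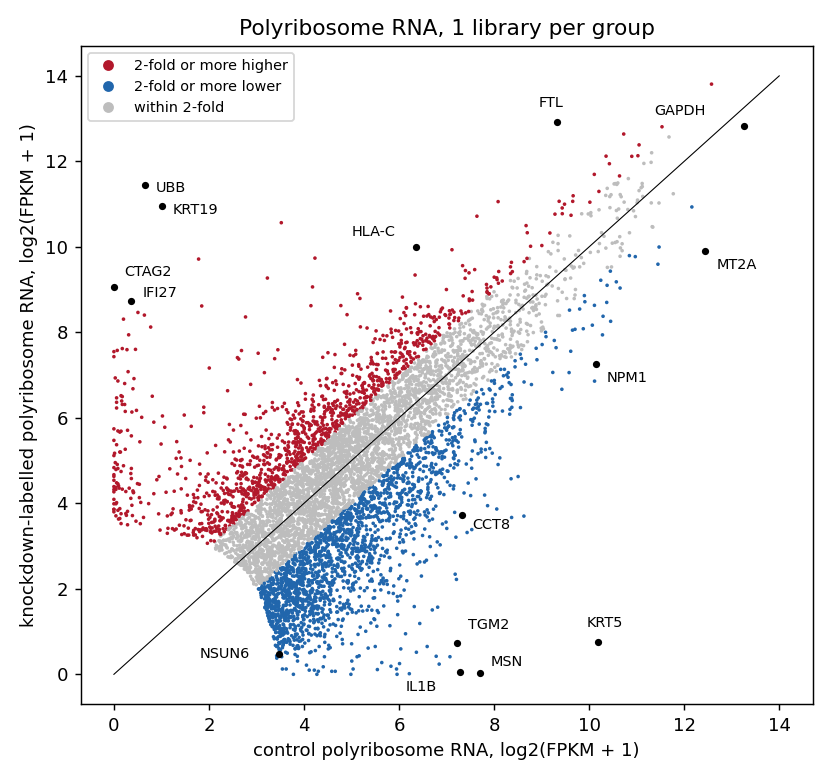
Level of each of the 6861 genes in control (x axis) and knockdown-labelled (y axis) polyribosome RNA, as log2(FPKM + 1), 1 library per axis, with genes at least 2-fold apart in colour and some of the genes named in the text in black. The empty lower left corner is set by the rule of a mean of 5 FPKM, and more coloured points lie below the diagonal (2028) than above it (1219).

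Input RNA of the same genes differed less often. By the same fold, 882 were higher in input (12.9%) and 1023 lower (14.9%). Of the genes higher on polyribosomes, 516 were also higher in input, which is 42.3% of the first set and 58.5% of the second. Of those lower on polyribosomes, 581 were also lower in input, 28.6% and 56.8% of the 2 sets. Input stayed within 2-fold for 667 of the higher and 1374 of the lower genes, so a larger part of the lower genes (67.8%) than of the higher ones (54.7%) differed on polyribosomes without a 2-fold difference in input. Opposite directions were seen for 36 genes higher on polyribosomes and lower in input and for 73 lower on polyribosomes and higher in input. The groups below follow that order only in part. Those in which both fractions differed come mostly first, and those in which polyribosome RNA differed beside a steadier input mostly later.

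Messages of squamous epithelium were low and those of simple epithelium high in knockdown-labelled polyribosome RNA. The table lists 12 squamous markers, of which 9 passed the rule. None of them was 2-fold higher (0) and 6 were 2-fold lower, with a median of -3.24 against -0.17 over all genes. KRT5, the keratin of basal squamous cells, was at 1162 FPKM in control and 0.7 in the knockdown-labelled library, and its input values were 906 and 0.45. KRT17 was at 329.6 and 11.7 FPKM, and KRT14, the partner of KRT5 in the filament, at 87.7 and 3.92. PKP1, a plakophilin of the desmosome, was at 22.99 and 0.05. TP63, the transcription factor that maintains squamous epithelium, behaved differently in the fractions. It was at 28.8 and 2.16 FPKM on polyribosomes but at 30.2 and 23.7 in input, and its difference of -3.24 became -0.27 with the fractions exchanged. KRT6A, which has near-identical copies, stood at 39.8 and 40.03 FPKM, and SFN, the epithelial 14-3-3 sigma protein, at 653 and 520.1, so not every marker was low. SOX2, DSC3 and DSG3 were under the rule. SOX2 was higher in the knockdown-labelled library, with 0.27 and 8.28 FPKM.

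The 10 simple epithelium markers all passed, with 5 at least 2-fold higher, 1 lower and a median of 1.54. KRT19, a keratin of simple and ductal epithelia, was at 1.02 FPKM in control and 1973 in the knockdown-labelled library. AGR2, which helps fold secreted proteins, was at 0.15 and 316, and KRT7 at 5.06 and 169. KRT8 and KRT18, the pair common to simple epithelia, were high in both libraries, KRT8 at 2120.3 and 2547 and KRT18 at 2073 and 2185. EPCAM, an adhesion molecule of simple epithelia, was lower on polyribosomes, at 76.6 and 28.1 FPKM, but higher in input, at 66.4 and 186. The squamous median was -1.16, the simple one 1.34 and the EPCAM difference 1.27 with the fractions exchanged. Over markers at 5 FPKM or more in both libraries, which leaves out KRT5 and KRT19, the medians were -0.44 and 0.68. Of 14 markers of fibroblasts, endothelium, immune and erythroid cells in the table, 13 were under the rule, with COL1A1 highest at 2.58 FPKM in control. The exception was CD68, a lysosomal protein that epithelial lines also make, at 69.3 and 6.38. In the control library the labelled squamous identity thus had its defining keratins, and in the knockdown-labelled library KRT5 and KRT14 were near 0 or low.

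**Figure D2:**
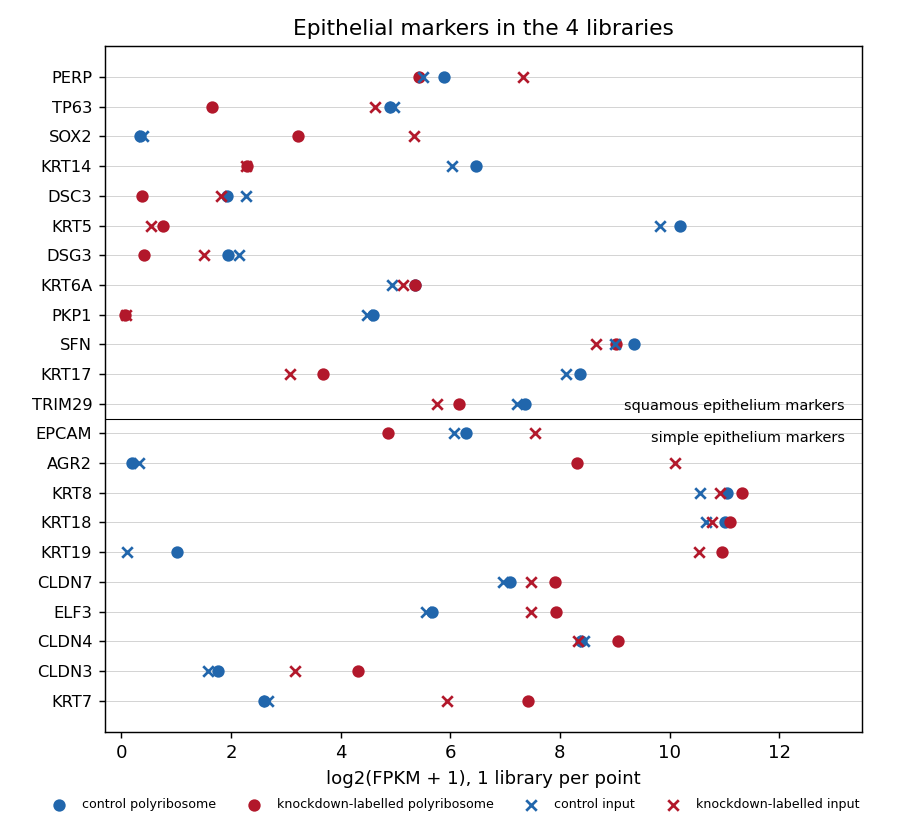
Levels of the squamous (upper) and simple (lower) epithelium markers as log2(FPKM + 1), with 1 point per library, circles for polyribosome RNA, crosses for input, blue for control and red for knockdown-labelled. KRT5 and KRT19 lie at opposite ends in the blue and red libraries in both fractions, whereas EPCAM and TP63 differ between the 2 red libraries.

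Genes of the cornified envelope, the cross-linked shell of terminally differentiated squamous cells, held more higher than lower members among those that passed the rule. Of the 12 that passed, 7 were at least 2-fold higher and 2 lower, with a median of 2.31. The small proline-rich proteins SPRR3 and SPRR1B were at 0.05 and 0.23 FPKM in control and at 189.97 and 134 in the knockdown-labelled library. KRT13, the keratin of suprabasal mucosal layers, was at 2.60 and 392. The 2 lower genes were CSTA, a cysteine protease inhibitor of the envelope, at 64.6 and 0.51, and the desquamation protease KLK5, at 228 and 42.01. These 12 genes thus did not all follow the basal keratins. Of the 4 at 5 FPKM or more in both libraries, 1 was higher and 1 lower, with a median of 0.37. The rest passed the rule through 1 library alone. Mucosal secretory genes went both ways, with 4 of 8 higher and 3 lower. S100P was at 0.3 and 69.3 FPKM and the mucin MUC20 at 0.28 and 24.9, whereas SLPI, a secreted protease inhibitor, was at 185 and 55.8. Among 9 HOX genes, which mark position along the body axis, 2 were higher and 1 lower, with HOXC10 at 0.79 and 17.7 FPKM and HOXA3 at 21.7 and 7.92.

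Junction, integrin and matrix genes held members on both sides, and the balance within each group depended on the column order or on base composition. Of 19 cadherin, desmosome and tight junction genes, 2 were higher and 8 lower by 2-fold or more, with a median of -0.24. The fractions exchanged gave 2 higher and 2 lower of 22 and a median of 0.11, and removal of GC content and length 0 higher and 6 lower. DSP, the desmoplakin that ties keratin to desmosomes, was at 13.6 and 0.59 FPKM. CRB3, a polarity protein, was at 35.5 and 73.5. Of 14 integrins and tetraspanins, 5 were higher and 2 lower, and 2 were higher and 2 lower after that removal. TSPAN15, a partner of the sheddase ADAM10, was at 0.34 and 119.9 FPKM, and ITGB4, the hemidesmosome integrin, at 43.1 and 116. ITGB1, the common integrin beta chain, was at 26.6 and 3.89 on polyribosomes but at 30.4 and 39.7 in input, and with the fractions exchanged it differed by 0.56. Among 16 laminin, collagen and other matrix genes, 6 were higher and 4 lower, and after it 3 and 3. TGFBI, a matrix protein induced by TGF-beta, was at 1.79 and 65.9 FPKM. The matricellular genes CYR61 and CTGF, both known targets of YAP, went in opposite directions, CYR61 from 332 in control to 83.8 and CTGF from 5.29 to 28.4. THBS1, thrombospondin, was at 22.03 and 1.49. Of 23 proteases and inhibitors, 5 were higher and 6 lower, with the membrane protease PRSS8 at 9.93 and 192.

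Growth factor and receptor messages differed widely and evenly in direction, with 11 of 31 higher and 11 lower. NRG1, a ligand of the ERBB receptors, was at 81.4 FPKM in control and 0.43 in the knockdown-labelled library. AXL, a receptor tyrosine kinase, was at 67.3 and 7.56, while FGFR3 was at 2.49 and 29.2. The proteins that bind insulin-like growth factors split, with IGFBP2 at 0.24 and 245, IGFBP3 at 5.18 and 165 and the related IGFBP7 at 116 and 7.16. In the WNT, Notch, TGF-beta and BMP list, 9 of 24 were higher and 7 lower, with a median of 0.84, and -0.06 after removal of GC content and length. BMP4 was at 0.3 and 14.5 FPKM, and the inhibitors of differentiation that BMP signals induce were high with it. ID3 was at 33.95 and 477 and ID2 at 0.48 and 15.2. DKK3, a secreted protein of the Dickkopf family, was at 48.8 and 0.21, and WNT10A at 20.6 and 0.33.

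Inflammatory and interferon messages lay on opposite sides. Of 17 NF-kB and cytokine genes, 1 was higher and 12 lower, with a median of -2.02 on polyribosomes, -1.71 in input and -0.99 over genes at 5 FPKM or more in both polyribosome libraries. IL1B was at 154 FPKM in control and 0.03 in the knockdown-labelled library, and the adhesion molecule ICAM1 at 55.9 and 0.14. NFKBIA, the inhibitor that NF-kB itself induces, was at 117 and 123. The 1 higher gene was IL1RN, the antagonist of the interleukin 1 receptor, at 4.51 and 10.8. Of 24 interferon-induced genes, 12 were higher and 1 lower, with a median of 1.23, which was 2.18 in input and 0.58 over genes at 5 FPKM or more in both libraries. IFI27 was at 0.29 and 428 FPKM, BST2, the tetherin that holds budding virus, at 0.56 and 338, and IFI6 at 10.5 and 1514. IFIT1, which binds foreign RNA caps, was at 6.17 and 6.0 on polyribosomes although its input values were 7.29 and 49.3. IFITM2, which has near-identical copies, was the lower gene, at 43.4 and 1.46.

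Antigen presentation genes were more often higher. Among 17 genes of the MHC class I pathway 7 were higher and 2 lower, with a median of 0.63, and 0.08 after removal of GC content and length. HLA-B and HLA-C, class I heavy chains whose similarity makes their separate values uncertain, were at 17.8 and 81.3 FPKM in control and at 852 and 1018 in the knockdown-labelled library. The lower 2 were folding factors of the endoplasmic reticulum. CANX, calnexin, was at 60.8 and 15.3 and PDIA3 at 90.1 and 32.1, while input CANX was at 58.3 and 152. CANX differed by 1.31 and PDIA3 by 0.08 with the fractions exchanged. The cancer/testis antigens, genes normally limited to germ cells, were 4 higher and 3 lower of 12, and their members on the X chromosome have close copies. CTAG2 was listed at 0 in control and stood at 537 FPKM in the other library, and MAGEA12 at 61.2 in control and listed at 0 in the other. MAGEB2 was at 1.66 and 32.4 and CSAG1 at 111 and 1.97.

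Actin-binding proteins of the cell cortex were among the messages furthest apart. Of 55 actin cytoskeleton genes, 4 were higher and 22 lower, with a median of -0.68, while the input median was 0.20. In the other order the median was -0.03, with 5 higher and 13 lower of 56. MSN, moesin, which links actin to the membrane, was at 206 FPKM in control and 0.02 in the knockdown-labelled library. LCP1, the plastin of blood cells and carcinomas, was at 63.5 and 0.19 and TPM2, a tropomyosin, at 35.3 and 1.15. GSN, gelsolin, which severs filaments, was at 21.7 and 183, and CTTN, cortactin, at 89.8 and 219. The calcium-binding S100 family was higher in 6 of 10 and lower in 2, with S100A6 at 198 and 1682, S100A4 at 2.71 and 68.6 and S100A2, a squamous family member, at 362 and 23.7. Annexins, which bind membranes in the presence of calcium, were lower in 6 of 9, with a median of -1.63. ANXA1 was at 394 and 12.01 FPKM on polyribosomes beside 337 and 265 in input, and its difference of -4.93 became -0.57 with the fractions exchanged. ANXA3 was low in both fractions, with 95.5 and 0.57 on polyribosomes and 72.3 and 4.21 in input. The annexin median was -0.42, with 2 lower, when the fractions were exchanged.

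Genes expressed at 20 FPKM or more in both polyribosome libraries avoid the weak values near 0, and 2827 genes met that level. The 10 lowest differences among them were those of S100A2, EIF3M, LGALS1, RAC2, ASS1, SAT1, YWHAB, NPM1, SMS and DDIT4. LGALS1, galectin 1, was at 1107 and 115 FPKM, the GTPase RAC2 at 270.3 and 29.02, and ASS1, the argininosuccinate synthase of the urea cycle, at 277 and 32.4. Polyamine enzymes were 2 of the 10. SAT1, which acetylates polyamines, was at 196 and 22.8, and SMS, the spermine synthase, at 248 and 35.1. DDIT4, a stress-induced inhibitor of mTOR signalling, was at 687 and 101. The 10 highest were RHOB, ID3, HLA-C, HSPA1A, FTL, FADD, S100A6, LYPD3, GSN and ID1. RHOB, a short-lived GTPase of endosomes, was at 26.4 and 394 FPKM, and FADD, the adaptor of death receptors, at 28.98 and 339.96. In input, 9 of the 10 highest differed in the same direction by at least 2-fold, all but FTL. Of the 10 lowest, 7 did so, all but EIF3M, YWHAB and NPM1.

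A second set of messages differed on polyribosomes while their input was steady. Among the 1622 genes whose input difference was within 0.25 of 0, 155 were higher and 440 lower on polyribosomes by 2-fold or more. Both shares were under those of all 6861 genes, of which 17.8% were higher and 29.6% lower. The 5 lowest were DCAF13, PLS3, CCT8, NARS and BZW1. PLS3, the plastin of solid tissues, which bundles actin, was at 43.5 FPKM in control input and 43.5 in knockdown-labelled input, yet at 42.9 and 2.44 on polyribosomes. CCT8, a subunit of the chaperonin that folds actin and tubulin, was at 113 and 113 in input and at 159 and 12.2 on polyribosomes. NARS, the asparaginyl-tRNA synthetase, was at 43.9 and 2.89 on polyribosomes, and DCAF13, a nucleolar factor of ribosome assembly, at 36.7 and 1.79. The 5 highest were TEN1, UBTD1, ANKRD13D, RIN3 and C4orf48. TEN1, a subunit of the CST complex of telomeres, was at 15.3 and 15.9 FPKM in input and at 9.41 and 71.6 on polyribosomes. UBTD1, a protein with a ubiquitin-like domain, was at 15.3 and 85.6 and RIN3, an activator of RAB5, at 5.53 and 27.8. With the fractions exchanged, 0 of these 10 differed by 2-fold, and their differences ran from -0.69 for DCAF13 to 0.72 for RIN3. These genes were picked for a steady input, and the control fractions were close to each other (r of 0.98). Small values in that order thus follow from the choice of genes and say nothing of which order is right.

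The coding sequences of these genes differed in base composition, which is shown here for the middle 120 bases of 4 of them because base composition followed the difference over all genes. G and C are in capitals. The sequences are those of 1 GENCODE 29 transcript per gene (GRCh38), 5′ to 3′, at positions 886 to 1005 of the coding sequence for PLS3, 763 to 882 for CCT8, 124 to 243 for TEN1 and 280 to 399 for UBTD1.
PLS3: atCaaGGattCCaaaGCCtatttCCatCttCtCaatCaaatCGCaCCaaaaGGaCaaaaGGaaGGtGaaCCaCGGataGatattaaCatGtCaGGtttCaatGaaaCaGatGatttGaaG
CCT8: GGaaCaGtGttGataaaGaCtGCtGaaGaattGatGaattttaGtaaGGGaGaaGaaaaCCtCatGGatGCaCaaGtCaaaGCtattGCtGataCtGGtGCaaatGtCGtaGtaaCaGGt
TEN1: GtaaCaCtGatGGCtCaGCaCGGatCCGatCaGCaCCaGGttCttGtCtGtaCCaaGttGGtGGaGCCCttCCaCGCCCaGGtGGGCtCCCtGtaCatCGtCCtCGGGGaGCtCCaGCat
UBTD1: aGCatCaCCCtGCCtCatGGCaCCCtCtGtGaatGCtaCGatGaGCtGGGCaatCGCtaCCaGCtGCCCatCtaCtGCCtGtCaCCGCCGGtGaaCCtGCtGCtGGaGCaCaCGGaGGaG
The stretches of the lower genes PLS3 and CCT8 held 37.5% and 39.2% G and C, and those of the higher genes TEN1 and UBTD1 held 59.2% and 60.8%. Over their whole transcripts the values were 38.96% for PLS3, 43.1% for CCT8, 62.1% for TEN1 and 66.5% for UBTD1. All 5 of the lowest genes with steady input were at or under 44.3%, that of NARS, and all 5 of the highest at or above 62.1%.

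Messages rich in A and T were low and those rich in G and C were high in the knockdown-labelled polyribosome library. Over 6814 genes with a matched transcript (99.3%), the Spearman correlation across genes between transcript GC content and the difference was 0.60, and in input it was -0.08. Genes were put in 5 bins by GC content. In the lowest bin, from 32.0% to 45.0% GC, the median difference was -1.68 and 985 of 1363 genes (72.3%) were at least 2-fold lower while 34 were higher. In the highest bin, from 60.8% to 74.7%, the median was 0.71 and 509 genes (37.3%) were higher while 83 were lower. Input medians of the same bins were 0.11 and -0.11. The correlation was 0.58 for the coding sequence, 0.59 for the third base of its codons, 0.55 for the 3′ untranslated region and 0.15 for the 5′ untranslated region. For polyribosome minus input it was -0.09 in the control pair and 0.81 in the knockdown-labelled pair. With the fractions exchanged, the correlation with the polyribosome difference over these genes was -0.07. The genes share their libraries and their annotation, so these are descriptions. The part of base composition in the polyribosome difference was not tested beyond its removal, given next.

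**Figure D3:**
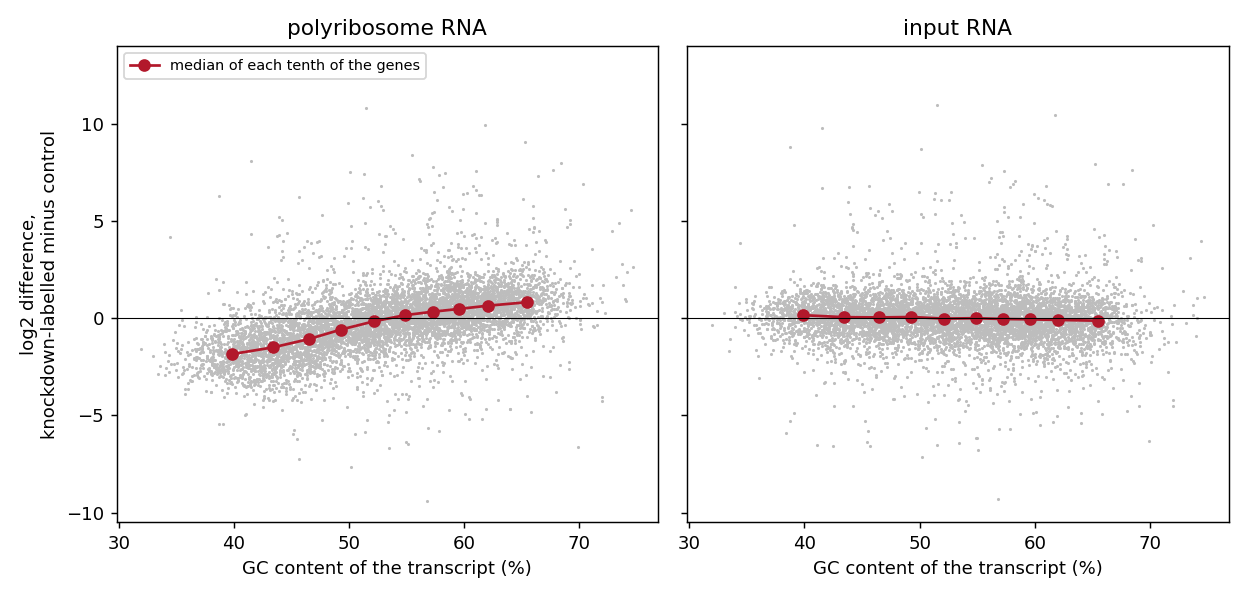
Difference of log2(FPKM + 1), knockdown-labelled minus control, against the GC content of the transcript in percent, for polyribosome RNA (left) and input RNA (right), 1 grey point per gene and red points for the medians of 10 equal bins of the genes ordered by GC content. In polyribosome RNA the medians climb from -1.85 in the lowest bin to 0.82 in the highest, and in input they go from 0.15 to -0.13.

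Other features of the messages followed the difference less. Transcript length had a Spearman correlation of -0.10 across genes, with a median of -0.08 in the shortest of 5 bins and -0.41 in the longest. The length of the 3′ untranslated region gave -0.12, that of the protein -0.02 and that of the 5′ untranslated region -0.02. Since NSUN6 is known to methylate the tRNAs of cysteine and threonine, the share of codons for these amino acids was set beside the difference. Its correlation across genes was 0.02, and the medians of 5 bins by this share lay between -0.21 and -0.12, all near the median of all genes. In the lowest bin 15.6% of genes were 2-fold higher and 27.5% lower, and in the highest bin 21.9% and 30.9%. After a quadratic trend on GC content and length was removed, 803 genes were higher and 1611 lower by 2-fold or more. Of the 1219 higher genes 593 were still called (48.6%), and of the 2028 lower genes 1153 (56.9%).

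**Figure D4:**
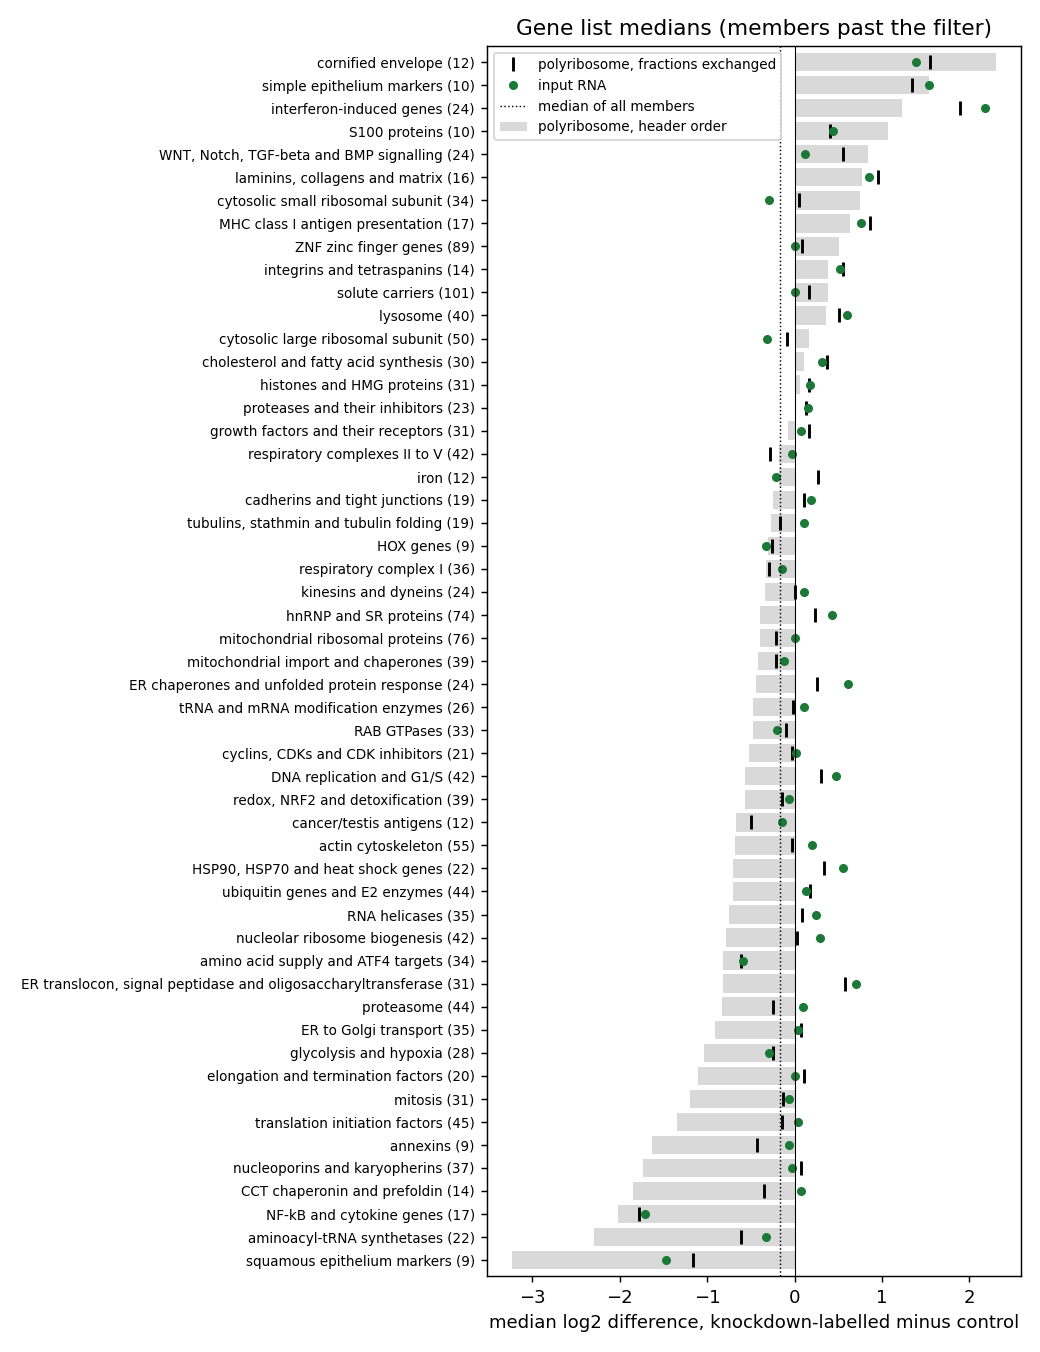
Median difference of log2(FPKM + 1), knockdown-labelled minus control, of gene lists in polyribosome RNA (bars, with the number of genes past the rule in brackets), beside input RNA (circles) and polyribosome RNA with the fractions exchanged (ticks). At the top, cornified envelope, simple epithelium and interferon lists have high bars, circles and ticks. Near the bottom the chaperonin, nucleoporin and initiation factor lists have low bars and circles and ticks near 0. Circles and ticks share the column headed as knockdown input, so they are not independent readings.

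Messages for the machinery of translation were lower on polyribosomes in the header's order of columns while their input was near steady. Of 22 aminoacyl-tRNA synthetases, which charge tRNAs, 0 were higher and 16 lower by 2-fold or more. Their median was -2.29, beside -0.33 in input and -1.60 with GC content and length removed. Exchange of the fractions gave -0.62 and 7 lower genes. The lowest were EPRS, at 20.7 and 0.68 FPKM, GARS, at 222 and 17.3, and NARS. VARS, FARSA and the scaffold protein AIMP2 were the 3 closest to control, with VARS at 41.2 and 45.6. Initiation factors, which bring the ribosome to the start codon, were lower in 26 of 45 and higher in 1, with a median of -1.34, an input median of 0.03 and -0.65 with GC content and length removed. After that removal 15 were lower, and with the fractions exchanged 6 of 47, with a median of -0.14. EIF3M, a subunit of the factor that bridges mRNA and small subunit, was at 327 and 22.8. EIF4G2, a scaffold for initiation without cap binding, was at 143 and 12.8 beside 182 and 186 in input, and with the fractions exchanged it differed by 0.38. The 1 higher gene was EIF4EBP2, which blocks the cap-binding factor, at 7.92 and 31.04.

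Elongation and termination factors were lower in 10 of 20, with a median of -1.11. Removal of GC content and length gave a median of -0.54 with 5 lower, and exchange of the fractions one of 0.10 with 1 lower of 21 and 3 higher. GSPT1, the release factor eRF3, was at 38.3 and 6.29 FPKM, and NACA, which binds nascent chains at the ribosome exit, at 602 and 133. EEF1A2, the elongation factor form of muscle and neurons, was the 1 higher gene, at 0.21 and 192, and the close similarity to EEF1A1 makes its value uncertain. EEF1A1 was at 2838 and 1019.98. Nucleolar factors of ribosome assembly were lower in 19 of 42 and higher in 2, with a median of -0.78 and an input median of 0.29. Removal of GC content and length left 16 lower and a median of -0.70, and exchange of the fractions 3 lower of 47 and a median of 0.03. The helicases DDX21 and DDX18 were at 39.2 and 20.3 FPKM in control and at 1.83 and 1.16 in the knockdown-labelled library, and their differences of -3.83 and -3.30 became -0.62 and -0.44 with the fractions exchanged. RRP1 was at 17.97 and 40.6. RNA helicases as a family were lower in 14 of 35 and higher in 2, with a median of -0.75. Over helicases at 5 FPKM or more in both libraries 6 of 24 were lower, and with the fractions exchanged 1 of 41 was lower and 4 were higher. Among 26 enzymes that modify tRNA or mRNA, 3 were higher and 11 lower, beside 17.8% and 29.6% of all genes. With the fractions exchanged 3 of 32 were higher and 5 lower. Over those at 5 FPKM or more in both libraries 3 of 20 were higher and 5 lower. Their median was -0.02, against -0.47 over all 26. METTL3, the catalytic subunit of the N6-adenosine methyltransferase, was at 42.98 and 4.31, and the demethylases FTO and ALKBH5 went in opposite directions, FTO at 23.7 and 3.41 and ALKBH5 at 44.1 and 229.

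Ribosomal proteins of the small subunit went the other way, while those of the large subunit were split before removal of GC content and length. Among 34 small subunit genes 9 were higher and 0 lower by 2-fold or more, with a median of 0.75 beside -0.29 in input. RPS27 was at 1309.6 FPKM in control and 4455 in the knockdown-labelled library, RPS29 at 270.4 and 2131 and RPS19 at 660.2 and 2142. At the other end RPS6, the S6 kinase substrate, was at 1418 and 738. Of 50 large subunit genes 9 were higher and 7 lower, with a median of 0.16. Their share of higher genes was near the 17.8% of all genes, and their share of lower genes was under the 29.6%. The large subunit median was 0.05 over genes at 5 FPKM or more in both libraries and 0.01 with a common sum. With GC content and length removed, 11 large subunit genes were higher and 1 lower, with a median of 0.26. That removal left 6 small subunit genes higher and 0 lower, with a median of 0.42. RPLP1, of the stalk that binds elongation factors, was at 1695 and 6379 FPKM. RPL14 was at 1322 and 415 and RPL5, which carries 5S RNA into the ribosome, at 1105 and 396. RPL39L, a copy of RPL39 with uncertain separation from it, was listed at 0 in control and at 172 in the knockdown-labelled library. The directions of RPLP1 in polyribosome and input RNA were opposite, since its input was at 4353 and 1072 FPKM. With the fractions exchanged the 2 subunit medians were 0.06 and -0.08, RPLP1 differed by -0.66, and 0 small subunit genes were 2-fold higher and 2 lower.

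Most ribosomal protein messages begin with a C followed by an unbroken run of pyrimidines, the element through which mTOR signalling is known to control their translation. Starts of 4 such genes are printed because they lay at both ends of the difference. Each is the first 20 bases of an annotated RefSeq start (GRCh38.p14, plus strand for all 4), with the pyrimidine run in capitals, at chr1:153990762-153990781 for RPS27, chr15:69452818-69452837 for RPLP1, chr3:40457339-40457358 for RPL14 and chr5:171387849-171387868 for NPM1, for which it is 1 of several annotated starts. The deposited table holds no coordinates and was made on another build.
RPS27: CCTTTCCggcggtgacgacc
RPLP1: CCCCTTTCCTCagctgccgc
RPL14: CTTCTCgcctaacgccgcca
NPM1: CTTTCCCTggtgtgattccg
RPS27 and RPLP1 were higher, by 1.77 and 1.91, and RPL14 and NPM1, a nucleolar phosphoprotein whose message carries the same element, were lower, by -1.67 and -2.88. NPM1 was at 1126 and 152 FPKM on polyribosomes and at 803 and 1574 in input, and with the fractions exchanged it differed by 0.48. A start of this kind was searched on the transcribed strand as a C followed by 4 bases that are each C or T. Of 5370 matched genes, 467 (8.70%) had it at 1 or more of their annotated starts. Counted per start, it was found at 1429 of all 35116 annotated starts of the RefSeq table (4.07%). The first share counts genes, some with several starts, so the 2 shares cannot be set against each other. Genes with such a start had a median of -0.21 and the others of -0.18. Among ribosomal protein genes, the 48 with it had a median of 0.42, with 11 higher and 4 lower, and the 21 without it a median of -0.45, with 2 higher and 5 lower. These medians were -0.03 and -0.13 with the fractions exchanged. A match in annotated letters says nothing of the start used in these cells.

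Folding factors of the cytosol were more often lower than higher on polyribosomes in the header's order, with steady or higher input. The same direction held over all genes, with 29.6% lower and 17.8% higher. Of the 14 chaperonin and prefoldin genes, which fold actin and tubulin, 0 were higher and 8 lower, with a median of -1.84 beside 0.07 in input. Removal of GC content and length gave -0.86 with 6 lower, and exchange of the fractions -0.35 with 1 lower and 1 higher. CCT2 was at 183 and 31.5 FPKM and VBP1, a prefoldin subunit, at 34.4 and 5.66. In the header's order of columns, CCT3 alone in this list had a difference above 0, at 233 and 277. The list of HSP90, HSP70 and related heat shock proteins split between members, with 4 of 22 higher and 9 lower and a median of -0.70, beside 9 higher, 2 lower and 0.55 in input. Its median was -0.07 with GC content and length removed and 0.34, with 6 higher and 2 lower of 24, with the fractions exchanged. HSP90AA1 was at 172 and 8.97 and HSPA4 at 32.1 and 2.94, whereas the stress-induced pair HSPA1A and HSPA1B, near-identical to each other, were at 35.2 and 79.4 in control and at 443 and 339.6 in the knockdown-labelled library. HSP90AA1 and HSPA4 had GC contents of 43.00% and 42.5%, and HSPA1A and HSPA1B of 59.7% and 58.7%. HSP90AA1 differed by 0.43 and HSPA4 by 0.81 with the fractions exchanged.

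Genes of protein degradation were also more often lower than higher in the header's order, as were all genes (29.6% lower and 17.8% higher). Of 44 proteasome genes 1 was higher and 17 lower, with a median of -0.83 and an input median of 0.09. Removal of GC content and length left 15 lower and a median of -0.48, and exchange of the fractions 3 lower, 2 higher and a median of -0.25. PSMD14, the deubiquitinase of the lid, was at 78.5 and 7.99 FPKM and PSMC6, an ATPase of the base, at 24.9 and 2.91 beside 20.04 and 45.96 in input. The higher gene was PSMB10, a catalytic subunit of the immunoproteasome, at 28.5 and 76.2. Ubiquitin genes and conjugating enzymes were lower in 18 of 44 and higher in 4. UBE2D1 was at 10.3 and 0.48, and UBB, a polyubiquitin gene whose repeats make its value uncertain, at 0.57 and 2786. PSMC6 differed by 0.86 and PSMD14 by -0.27 with the fractions exchanged. The ubiquitin list then had a median of 0.18 with 4 higher and 6 lower of 45, against -0.71 in the header's order. After removal of GC content and length its median was -0.16, with 6 higher and 8 lower.

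Secretory pathway messages differed in direction between the fractions. Of 31 genes of the translocon, signal peptidase and oligosaccharyltransferase, 5 were at least 2-fold higher and 13 lower on polyribosomes, with a median of -0.82, while in input 10 were higher and 0 lower, with a median of 0.70. SRP54, the signal recognition GTPase, was at 23.5 and 1.26 FPKM and SRP72 at 16.3 and 1.17. SRP9 was at 110.5 and 25.4 on polyribosomes but at 97.2 and 217 in input. TUSC3, an oligosaccharyltransferase subunit, was at 0.45 and 20.8, and the translocon-associated protein SSR4 at 116 and 356. The sign of this list's median depended on the choices made, since it was 0.57 with the fractions exchanged and 0.28 with GC content and length removed. Chaperones of the endoplasmic reticulum were lower in 6 of 24 and higher in 3, shares under the 29.6% and 17.8% of all genes. With the fractions exchanged 1 of 25 was lower and 5 were higher. HSP90B1 was at 22.7 and 2.96 and CALR, calreticulin, at 287 and 587, and with the fractions exchanged HSP90B1 differed by 1.18.

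Transport from the endoplasmic reticulum onward was lower in 17 of 35 genes and higher in 4, with a median of -0.92. With the fractions exchanged the median was 0.07 with 4 lower of 40 and 0 higher, and with GC content and length removed -0.23 with 9 lower. The coatomer subunits ARCN1 and COPB1 were at 85.7 and 19.3 FPKM in control and at 5.19 and 0.87 in the knockdown-labelled library. The coat recruiter ARF1 was at 230.2 and 488. RAB GTPases, which mark membrane compartments, were lower in 13 of 33 and higher in 3, and lower in 4 of 35 and higher in 3 with the fractions exchanged. RAB6A of the Golgi was at 48.9 and 3.58 and RAB1A at 33.9 and 5.84, whereas the epithelial RAB25 was at 131 and 322. RAB1A differed by 0.67 with the fractions exchanged. Lysosomal genes were close to even, with 11 of 40 higher and 9 lower. The cathepsins CTSL and CTSH changed places, CTSL at 0.04 and 40.4 and CTSH at 61.8 and 2.28. IDS, the iduronate sulfatase, was higher on polyribosomes, at 12.2 and 53.7, and lower in input, at 51.5 and 10.6, and with the fractions exchanged it differed by -0.18.

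Mitochondrial messages lay nearer to the median of all genes. Of 76 mitochondrial ribosomal proteins 6 were higher and 23 lower, with a median of -0.40, and 2 and 7 of 77 with the fractions exchanged. MRPS35, whose difference then became -0.33, was at 77.8 and 5.97 FPKM and MRPL55 at 26.7 and 130.4. Respiratory complex I had 3 higher and 7 lower genes of 36, and complexes II to V had 3 higher and 8 lower of 42, shares of lower genes under the 29.6% of all genes. SDHD, a membrane anchor of complex II, was at 164 and 17.9 and NDUFA11 at 177 and 439. Among import factors and chaperones, 4 of 39 were higher and 9 lower. HSPA9, the matrix HSP70, was at 115 and 17.8, and CHCHD10, a protein of the intermembrane space, at 0.42 and 352.

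Ferritin messages went in opposite directions in the 2 fractions. FTL, the ferritin light chain, stood on polyribosomes at 640.1 FPKM in control and 7781 in the knockdown-labelled library, but at 2285 and 775 in input. FTH1, the heavy chain, was at 1906 and 4443 on polyribosomes and at 4809.5 and 1083 in input. FTL differed by 0.28 and FTH1 by -0.81 with the fractions exchanged. The other 10 iron genes that passed held 3 lower genes, among them ACO1, the iron regulatory protein that binds ferritin messages, at 11.3 and 1.39. Of 39 redox and detoxification genes 6 were higher and 14 lower, and 5 and 10 of 40 with the fractions exchanged. AKR1B1, the aldose reductase, was at 133 and 0.33, PRDX3, the mitochondrial peroxiredoxin, at 181 and 17.1, and MGST1, a membrane glutathione transferase, at 0.32 and 102.

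Metabolic groups differed from each other in direction. Glycolysis and hypoxia genes were lower in 14 of 28 and higher in 1, with a median of -1.04 beside -0.30 in input. The fractions exchanged left 8 lower of 29 and a median of -0.25. SLC2A3 was at 38.4 and 1.01 FPKM and ENO2, the neuronal enolase, at 26.9 and 0.76. The higher gene was SLC16A3, the lactate exporter, at 70.3 and 378. Amino acid supply and ATF4 target genes were lower in 15 of 34 and higher in 2, and in input 14 were lower. CTH, which makes cysteine, was at 34.2 and 0.91, and the folate enzyme MTHFD2 at 126 and 10.8, while the transcription factor ATF5 was at 4.25 and 98.3. Cholesterol and fatty acid synthesis had 7 higher and 7 lower genes of 30. DHCR7, the last enzyme of cholesterol synthesis, was at 0.13 and 196, SREBF1, the regulator of lipid synthesis, at 33.04 and 190.01, and the lanosterol demethylase CYP51A1 at 33.3 and 6.35. Of 101 solute carriers that passed, 32 were higher and 17 lower, a share of higher genes above the 17.8% of all genes. In input 18 of these carriers were higher and 18 lower. With GC content and length removed the carriers were close to even, with 19 higher and 17 lower, and with the fractions exchanged 27 of 120 were higher and 13 lower. SLC1A6, a glutamate transporter, was at 0.06 and 50.7 and SLC38A5, a glutamine transporter, at 60.7 and 0.09.

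Mitotic and nuclear pore messages, whose median GC contents were 46.5% and 47.0%, were more often lower than higher. Mitotic genes were lower in 18 of 31, beside 29.6% of all genes, and higher in 0. Their median was -1.19, -0.75 with GC content and length removed and -0.13 with the fractions exchanged. At 5 FPKM or more in both libraries 11 of 24 were lower, with a median of -0.67. NUSAP1, a spindle protein, was at 40.1 and 2.01 FPKM and the checkpoint kinase BUB1 at 14.3 and 1.03, while BIRC5, survivin, was at 64.01 and 97.7. Replication and G1/S genes were lower in 15 of 42, beside 29.6% of all genes, and higher in 2, with a median of -0.56. This difference ended with GC content and length removed (4 lower, median -0.13) and with the fractions exchanged (0 lower and 2 higher of 48, median 0.30). RRM1, the large subunit of ribonucleotide reductase, was at 47.1 and 5.42, TK1 at 133 and 291 and POLD2 at 272 and 567. POLD2 differed by -0.48 with the fractions exchanged. Among cyclins, their kinases and inhibitors, CCND2 was at 73.4 and 0.01 FPKM, CCNE1 at 2.95 and 24.7 and CDKN1A, the p21 inhibitor, at 41.6 and 169. Nucleoporins and karyopherins, which form and cross the nuclear pore, were lower in 20 of 37 and higher in 1, with a median of -1.73, -0.66 with GC content and length removed and 0.08 with the fractions exchanged. Over those at 5 FPKM or more in both libraries it was -0.19, with 4 lower of 21. CSE1L, the exporter of importin alpha, was at 45.6 and 1.81 beside 59.1 and 44.7 in input, and its difference of -4.05 became -0.03 with the fractions exchanged. XPOT, the tRNA exporter, was at 57.9 and 2.71.

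RNA-binding proteins of the hnRNP and SR families were lower in 21 of 74 genes and higher in 4 on polyribosomes, whereas in input 18 were higher and 0 lower. The share of lower genes was under the 29.6% of all genes, and the median was -0.39. Removal of GC content and length gave 13 higher and 8 lower genes, and with the fractions exchanged 11 of 77 were higher and 0 lower. HNRNPA2B1 was at 239 and 37.9 FPKM on polyribosomes and at 183 and 282 in input. It differed by 0.23 with the fractions exchanged. Zinc finger genes with the ZNF symbol, mostly DNA-binding repressors, were higher in 27 of the 89 that passed and lower in 10, with a median of 0.51 and an input median of 0.01. ZNF703 was at 4.03 and 35.9 and ZNF226 at 16.5 and 1.38. The median GC content of these 89 was 59.7%, and with GC content and length removed their median was -0.19, with 9 higher and 8 lower. Kinesins and dyneins were lower in 8 of 24 and higher in 0, and tubulins and their cofactors lower in 6 of 19 and higher in 2, shares of lower genes near that of all genes. Over genes at 5 FPKM or more in both libraries 2 of 18 kinesins and dyneins were lower, and with the fractions exchanged 4 of 26 of them and 2 of 20 tubulin genes. CKAP5, a microtubule polymerase, was at 18.4 and 0.87 and TUBA1A at 20.7 and 69.7. Of 31 histone and HMG genes 6 were higher and 8 lower, with HMGN4 at 140.5 and 19.2.

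The most abundant ribosome-bound messages were partly shared. GAPDH, RPS2, RPL41 and RPL35 were among the 10 highest in both libraries. GAPDH led control at 9826 FPKM and was at 7277 in the knockdown-labelled library, where RPS2 led at 14328 against 6101 in control. Metallothionein MT2A, which binds zinc and copper, was among the highest in control, at 5572, and at 953 in the other library. ACTB, cytoplasmic actin, was at 4580.2 and 1954, and HSPB1, a small heat shock protein, at 2792 and 772. The 10 highest in the knockdown-labelled library held 7 ribosomal protein genes, RPS2, RPL35, RPLP1, RPL41, RPLP0, RPL12 and RPS27, and S100A11 at 2085 FPKM in control and 4485 in the knockdown-labelled library. The 10 highest genes of a library took 7.84% of the summed FPKM in control and 10.8% in the knockdown-labelled library. RPS2, RPL41, RPL35 and the other abundant ribosomal genes have many processed copies in the genome, and how reads among copies were assigned is not given in the sources used here.

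The other order of columns would leave a smaller comparison. In that order 7508 genes passed the rule, 985 of them higher (13.1%) and 1003 lower (13.4%) by 2-fold or more, with a median of 0.02. Of the genes higher in the header's order 487 were still called higher (39.95%), and of the lower genes 631 (31.1%). KRT5, KRT19, IL1B, UBB and IFI27 were at -9.65, 9.53, -6.91, 10.96 and 7.88 in that order, close to their differences in the header's order, of -9.42, 9.93, -7.23, 10.79 and 8.38. PLS3, CCT8, EIF4G2 and HSP90AA1 were at 0.02, -0.48, 0.38 and 0.43, against -3.67, -3.59, -3.38 and -4.11. PLS3 and CCT8 had been picked for a steady input, which by itself keeps their values small in that order.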

How the data were processed

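The authors deposited 1 table of FPKM per gene symbol for the 4 libraries, per the file headers, and beside it a ratio of polyribosome to input RNA per gene, which was not used. Per the labels' protocols, the kit keeps the strand of the mRNA. TopHat, with no version, and the builds hg19 and GRCh37 are named per the submitters' processing notes. How fragments were counted, on which strand and with which annotation is not given in the sources used here. The depth is unknown, since values are rounded to 0.01 FPKM and do not resolve single reads. The number of libraries, 1 per group, limits the precision of every value, and nothing says which part of a difference is technical.

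Differences were taken of log2(FPKM + 1), a scale that shrinks those of weakly expressed genes, between columns assigned by the header. Genes past a fold of 2 were counted, with no test. Rows with a number or no name in place of a symbol entered the counts only (9 of the 6861 genes). The genes and the 55 lists were chosen with earlier results of these data known. Named are NSUN6, METTL1 and the cell type markers. Further genes named are the 15 highest and 15 lowest differences at a mean of at least 10 FPKM, the 10 highest and 10 lowest at 20 FPKM or more in both libraries, and the 10 highest levels per library. The rule adds the 5 highest levels among genes listed at 0 in the other library, the 3 highest and 3 lowest members of a list, and the 5 highest and 5 lowest differences with input within 0.25. Outside the rule, genes at the edge of the minimum were named for their place there. Some genes that the rule names are not reported here. GC content and length came from 1 transcript per gene of GENCODE 29, and starts from RefSeq (GRCh38.p14). As an alternative, a second-order trend of the difference on GC content and length (log2) was subtracted. The other alternatives were exchanged fractions, a pseudocount of 0.1, a mean of at least 1 or 10 FPKM, no filter, a common sum and centring, and, added after the data were seen, a minimum of 5 FPKM in both libraries. Scripts were tested on simulated data and used Python 3.11.15, pandas 2.3.3, numpy 2.4.6 and matplotlib 3.10.9.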

Additional observations from a re-analysis of the deposited data

How the results depend on the processing

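No paired analysis was possible because each group had 1 library, and for the same reason no library could be left out. With the fractions exchanged, 1003 genes were lower, the share of 2-fold genes that were higher was 49.5% (37.5% in the header's order), the median was 0.018 and the correlation across genes with GC content was -0.15 over the genes then passing. The other counts that differed by over 1.5 times were 803 higher genes with GC content and length removed, and 3629, 3818 and 1049 lower genes at a mean of at least 1 FPKM, with no filter and with 5 FPKM in both libraries. The median of all genes was -0.42, -0.026, -0.043, 0.014, -0.32, 0 and -0.28 at a mean of at least 1, at 10, with no filter, with 5 FPKM in both, with a common sum, centred, and with GC content and length removed. A pseudocount of 0.1 kept both counts within 1.5 times.

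With the fractions exchanged the sign changed for 35 of 201 named genes and 16 of 54 list medians, among them 27 of the 185 genes and 2 of the 14 medians past 2-fold in the header's order, whose values follow. The lists were elongation and termination factors (0.10) and nucleoporins and karyopherins (0.079). Genes lower in the header's order were then at 1.31 (CANX), 1.27 (EPCAM), 1.18 (HSP90B1), 0.97 (SRP9), 0.86 (PSMC6), 0.81 (HSPA4), 0.67 (RAB1A), 0.56 (ITGB1), 0.48 (NPM1), 0.43 (HSP90AA1), 0.38 (EIF4G2), 0.37 (VBP1), 0.23 (HNRNPA2B1), 0.18 (COPB1), 0.17 (SRP72), 0.13 (CYP51A1), 0.12 (NACA), 0.076 (PDIA3), 0.018 (PLS3) and 0.013 (HSPA9). Genes higher in the header's order were at -0.81 (FTH1), -0.66 (RPLP1), -0.58 (CRB3), -0.48 (POLD2), -0.40 (RPS2), -0.18 (IDS) and -0.0076 (RPLP0). With GC content and length removed CRB3 was at -0.039 and SRP9 at 0.014. The cause was not tested.

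Of 14 list medians past 2-fold, 5 were past it in the same direction with the fractions exchanged, 5 with GC content and length removed, 3 with 5 FPKM in both libraries, 10 at a mean of at least 10 FPKM and 12 to 14 with the scalings and the other pseudocount.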
